A study of Mus musculus with 3 samples.

Results

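Irf1, Irf2, Irf3, Irf4, Irf5 and Irf8 are 6 genes of the interferon regulatory factor family, and they were chosen by their symbols among the 27998 genes of a joined table of microglia from the mouse lumbar spinal cord. All 6 symbols were found, each in 1 row, and their RNA was described across 7522 single cells. The cells were sorted for YFP from C57BL/6 young adult Cx3cr1-creER-yfp/+ heterozygous mice, in which the Cx3cr1 promoter drives the reporter and 1 Cx3cr1 copy is replaced in every group. The groups were naive mice and mice taken at 24 h or 48 h after transection of the sciatic nerve, with 1 library for each and, according to the methods, 3 animals pooled in it. The cells of the 3 libraries differ by a barcode suffix of 1, 2 or 3, but neither the labels nor the methods say which suffix stands for which group. The libraries are therefore called 1, 2 and 3 with their time points unknown, it is not known which differences between libraries are between naive and injured animals, and without replicates no test between libraries was made.

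Interferon regulatory factors bind DNA through a conserved N-terminal domain with a repeat of tryptophans, and they regulate interferon genes, interferon-stimulated genes and the development of blood cells. IRF8 acts with PU.1 in the development and upkeep of microglia and other myeloid cells. In spinal microglia after peripheral nerve injury, IRF8 is known to act upstream of IRF5, which drives the purinergic receptor gene P2rx4, and of IRF1, which takes part in the induction of Il1b. IRF3 is phosphorylated downstream of Toll-like receptors, STING and MAVS and is regulated mainly at the protein level. IRF2 competes with IRF1 for the same DNA element, and IRF4 is known from lymphocytes and dendritic cells.

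In GENCODE M21 on GRCm38, all 6 genes are protein-coding and lie on the plus strand. Irf8 spans chr8:120736358-120756694, Irf2 chr8:46739732-46847458, Irf5 chr6:29526625-29541871, Irf3 chr7:44997648-45002848, Irf1 chr11:53770014-53778374 and Irf4 chr13:30749226-30766976. Irf5 overlaps Tnpo3 on the opposite strand, Irf3 overlaps Bcl2l12 and Irf1 overlaps Gm17334 likewise. Those 3 neighbours had 7442, 1501 and 37 UMIs over all cells. Irf8 lies within the span of Gm20388 on the same strand, which had 0 UMIs, and Irf2 overlaps 3 genes on the opposite strand that are not in the count table. The chemistry reads the strand of the transcript, but the strand setting used in counting is not given in the sources used here.

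Promoter windows of 300 bases (250 before to 50 after a start site) were matched by symbol for all 6 genes in RefSeq on GRCm38.p6. They were searched on both strands for the interferon-gamma activated site TTCNNNGAA, the interferon-stimulated response element core GAAANNGAAA and the ETS-IRF composite element GGAANNGAAA, the last of which can overlap the core. Stretches upstream of the start site are shown for the 3 genes whose windows held a match, since these are the elements through which interferon signalling and the family's own members are known to act. Capitals mark the matches, and the stretches lie at chr8:120736147-120736253 for Irf8, chr11:53769884-53769972 for Irf1 and chr8:46739495-46739569 for Irf2.
Irf8: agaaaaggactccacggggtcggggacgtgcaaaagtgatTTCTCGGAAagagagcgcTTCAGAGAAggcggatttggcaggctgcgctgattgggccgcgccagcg
Irf1: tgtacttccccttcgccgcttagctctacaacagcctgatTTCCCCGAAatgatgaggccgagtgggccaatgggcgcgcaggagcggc
Irf2: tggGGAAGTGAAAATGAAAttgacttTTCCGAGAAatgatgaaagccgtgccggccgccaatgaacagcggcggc

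The Irf8 stretch held 2 interferon-gamma activated sites, the first of them 171 bases before the start site, and that of Irf1 held 1, which began 90 bases before it. Irf2 held 1 match of each of the 3 elements, with the ETS-IRF element and the response element core overlapping. The windows of Irf3, Irf4 and Irf5 and a second window each of Irf1 and Irf8 held no match to these letters. Over all 32851 promoter windows of the same length, 8.3% held the activated site, 3.44% the response element core and 2.72% the ETS-IRF element. A match describes the sequence only, and no binding was measured here.

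Library 1 held 609 cells, library 2 held 3591 and library 3 held 3322, with median depths of 2218, 5952 and 5742 unique molecular identifiers (UMIs), the tags that count single transcripts. Between pairs of libraries, 3 to 19 barcodes were shared apart from the suffix. Every cell held at least 2 of 10 microglia markers, which included P2ry12, Tmem119 and Csf1r, and the summed level of these 10 genes was 28093, 22976 and 26058 CPM (UMIs scaled to a library total of 1000000). The 21 cells with 2 neutrophil markers and the 10 with 2 T and NK cell markers passed this count too. With markers this abundant, passing it could not tell cell types apart. The lists for monocytes, perivascular macrophages, dendritic cells and neurons summed to under 10 CPM in each library, with Cd163, Lyve1, Clec9a and Ccr7 at 0 in all cells, and those for neutrophils and red blood cells did so too. Higher sums were found for the lists of astrocytes (164, 100.1 and 110 CPM in libraries 1, 2 and 3), oligodendrocytes (77.4, 62.3 and 72.1 CPM), B cells (41.0, 54.7 and 39.5 CPM), endothelial cells (35.0, 14.9 and 19.8 CPM) and T and NK cells (13.4, 15.7 and 3.14 CPM). Slc1a3 alone held most of the astrocyte UMIs and Pecam1 most of the endothelial UMIs in each library. The T and NK cell sums came from different genes. Klrd1 had 17, 73 and 57 UMIs in libraries 1, 2 and 3, whereas Gzma had 0, 225 and 0 and Nkg7 had 0, 68 and 1. The libraries stood apart in other genes. Immediate early genes, a list of 21 such as Fos and Jun, summed to 2946, 3537 and 31232 CPM in libraries 1, 2 and 3, and 17 proliferation genes to 84.9, 1136 and 125 CPM.

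Irf8 was the most abundant of the 6 genes. Its level was 836 CPM (95% interval 788 to 887) in library 1, 788 CPM (777 to 799) in library 2 and 1015 CPM (1001 to 1029) in library 3. Library 3 was highest and its interval overlapped with neither of the others. Over the 3 libraries Irf8 took 64.4% of the 62349 UMIs of the 6 genes and ranked 152nd among all genes by UMIs. Intervals of summed UMIs are exact Poisson intervals, those of ratios come from the exact conditional binomial distribution and those of shares are exact Clopper-Pearson intervals. All cover counting error only and not the spread between animals.

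Irf5, whose product drives P2rx4 and inflammatory cytokine genes, was the next in abundance. Its level was 293 CPM (264 to 323) in library 1, 217 CPM (212 to 223) in library 2 and 263 CPM (256 to 270) in library 3. Library 2 was lowest, and the intervals of libraries 1 and 3 overlapped. Irf2 stood at 203 CPM (180 to 229), 121 CPM (117 to 126) and 126 CPM (121 to 131). Library 1 was thus the high one for Irf2, and libraries 2 and 3 overlapped. These 2 genes took 17.4% and 9.11% of the UMIs.

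Irf3 and Irf1 were lower. Irf3 stood at 65.5 CPM (52.6 to 80.7), 86.4 CPM (82.7 to 90.1) and 74.2 CPM (70.4 to 78.1), with library 2 the highest. Irf1 stood at 57.3 CPM (45.2 to 71.7), 40.1 CPM (37.6 to 42.7) and 46.4 CPM (43.5 to 49.5), with library 2 the lowest. The order Irf8, Irf5, Irf2, Irf3, Irf1, Irf4 was found in each library, and only Irf3 and Irf1 in library 1 had overlapping intervals among neighbours in that order. The 3' method counts 1 UMI per captured transcript, so these levels were not divided by gene length, and capture of different transcripts may still differ.

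Irf4 was close to the limit of detection. It had 1 UMI in library 1, 22 in library 2 and 41 in library 3, which are 0.745 CPM (0.0189 to 4.15), 0.913 CPM (0.572 to 1.38) and 2.07 CPM (1.49 to 2.81). A count of 0 would allow up to 2.23, 0.124 and 0.152 CPM in the 3 libraries. Library 3 lay above library 2, and library 1 overlapped with both.

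**Figure D1:**
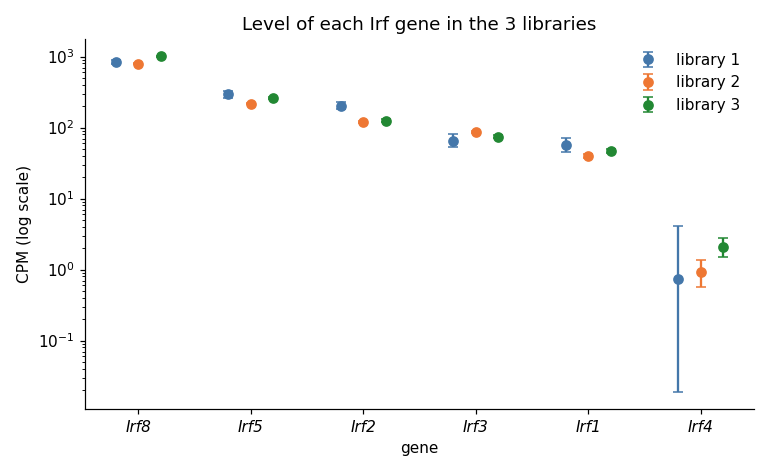
Level of each Irf gene in CPM (log axis) in library 1, 2 and 3 of unknown time point; points are summed UMIs over all cells of a library and bars exact 95% Poisson intervals. Irf8 lies between 788 and 1015 CPM and Irf4 between 0.745 and 2.07 CPM, with the other 4 genes between.

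The libraries were next compared in pairs, counting a gene as higher or lower past 1.5-fold among genes with at least 10 CPM in 1 of the pair. Irf4 stayed under that level, so 5 of the 6 genes entered. In library 2 over library 1, none of the 5 was past 1.5-fold higher and 1, Irf2, was lower, where 13.6% of all 8655 genes were higher and 19.3% lower. In library 3 over library 1, none was higher and again only Irf2 was lower, where 11.7% of 8512 genes were higher and 21.4% lower. Between libraries 3 and 2, none of the 5 was past 1.5-fold, where 4.04% of 8258 genes were higher and 6.88% lower. The counts of the members are near what these background shares give for 5 genes.

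Irf2 was lower in both comparisons with library 1. Its ratio was 0.597 (0.527 to 0.678) in library 2 over library 1 and 0.619 (0.546 to 0.704) in library 3 over library 1, whereas library 3 over library 2 gave 1.04 (0.982 to 1.09). The median log2 ratio of all genes tested was -0.11, -0.12 and -0.03 in the 3 comparisons. Scaled to the median gene, Irf2 stood at 0.645 and 0.673 over library 1, the second of which is no longer past 1.5-fold. The astrocyte, oligodendrocyte and endothelial lists were also highest in library 1. There the astrocyte sum was Slc1a3 alone (220 UMIs) and the endothelial sum Pecam1 alone (47 UMIs), with Gfap, Aqp4, Cldn5 and Flt1 at 0. Leaving out the cells that held 2 markers of another cell type took 5 cells from library 1, 191 from library 2 and 128 from library 3. Irf2 then stood at 203, 121 and 125 CPM. With so few cells left out of library 1, its value could hardly change. The same scaling moved the share of higher genes among all genes called from 41.4% to 54.7% for library 2 over library 1 and from 35.3% to 49.5% for library 3 over library 1.

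Irf8 and Irf5 were both higher in library 3 than in library 2. The ratio of Irf8 was 1.29 (1.26 to 1.31) and that of Irf5 was 1.21 (1.16 to 1.26). Library 3 held many more UMIs of immediate early genes and library 2 many more of proliferation genes. In cells of the lowest tertile of early gene UMIs of each library the Irf8 ratio was 1.34. In cells without a proliferation UMI it was 1.21, and Irf5 gave 1.16 and 1.27 likewise. Both classes were set in cells thinned to 2000 UMIs, over all of which the ratios were 1.26 for Irf8 and 1.19 for Irf5. At full depth 3492 of 3591 cells of library 2 held a proliferation UMI, so most of its cells without one after thinning did hold one. The tertiles were cut within each library and were not matched in early genes between libraries. Thinned cells of the lowest tertile held a mean of 36.7 early gene UMIs in library 3 and 3.81 in library 2. Over library 1, Irf8 gave 0.942 (0.887 to 1.002) in library 2 and 1.21 (1.14 to 1.29) in library 3. The interval for library 2 reached just past 1, and under scaling to the median gene the ratio turned to 1.02.

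Irf1 and Irf3 moved in opposite directions over library 1, but neither was steady. Irf1 gave 0.699 (0.554 to 0.894) in library 2 over library 1, 0.956 among cells thinned to 2000 UMIs and 1.01 among thinned cells without a proliferation UMI. Irf3 gave 1.32 (1.06 to 1.65), and 1.54 among thinned cells. Within library 1 the level of Irf3 was 104 CPM in the shallowest tertile of cells, 83.5 CPM in the middle and 34.5 CPM in the deepest, and a mean that weights every cell of library 1 equally gave 82.8 CPM against 87.3 CPM in library 2. In library 3 over library 2, Irf1 gave 1.16 (1.06 to 1.27) and Irf3 0.859 (0.803 to 0.919). Over all thinned cells this Irf1 ratio was 1.03. Among thinned cells of the lowest tertile of early gene UMIs it was 0.911, from 83 UMIs in library 3 and 99 in library 2. Among thinned cells without a proliferation UMI it was 0.869, from 231 and 73 UMIs. No intervals were computed for these ratios. The tertile was cut within each library and so was not matched in early genes.

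**Figure D2:**
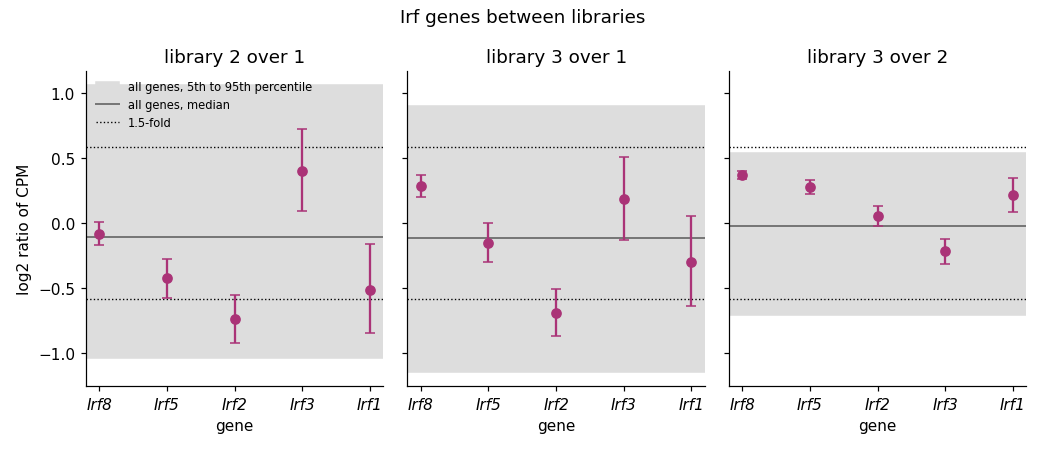
Log2 ratio of CPM for 5 Irf genes in each pair of libraries; points carry exact 95% intervals for counting error, the grey band spans the 5th to 95th percentile of all genes tested, the line is their median and dotted lines mark 1.5-fold. All points lie inside the band, and Irf2 is the only one past a dotted line, in both comparisons with library 1.

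The share of cells with a UMI rises with depth, so each cell was thinned to 2000 UMIs, which left out 201, 22 and 38 shallower cells in libraries 1, 2 and 3. At this depth Irf8 was found in 78.7% (74.4 to 82.6) of 408 cells in library 1, 79.1% (77.8 to 80.4) of 3569 in library 2 and 86.7% (85.5 to 87.8) of 3284 in library 3. Without thinning the shares were 75.5%, 98.3% and 98.9%, so the large unthinned gap between libraries 1 and 2 was not there at equal depth, and library 3 stayed the highest. Irf5 was found in 42.6% (37.8 to 47.6), 35.9% (34.4 to 37.5) and 41.2% (39.5 to 42.9) of cells, and unthinned in 46.3%, 73.6% and 75.4%.

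Irf2 kept its high value in library 1 at equal depth, with 33.3% (28.8 to 38.1) of cells against 22.2% (20.9 to 23.6) and 22.9% (21.4 to 24.3). Unthinned, the order was the opposite, at 35.8%, 53.3% and 51.7%. By tertiles of full cell depth, shallowest first, the level of Irf2 was 222, 218 and 184 CPM in library 1. It was 127, 129 and 114 CPM in library 2 and 142, 125 and 118 CPM in library 3. Median depth was 2878 UMIs in the deepest tertile of library 1, and 4415 and 4275 in the shallowest of libraries 2 and 3. Thinning did not match cells in full depth, so depth and library were not separated for Irf2. Irf3 was found in 10.5% (7.73 to 13.9), 16.3% (15.1 to 17.6) and 14.1% (12.9 to 15.3) of thinned cells, and unthinned in 13.1%, 42.7% and 34.8%. Irf1 was found in 9.31% (6.68 to 12.6), 8.60% (7.70 to 9.57) and 8.89% (7.94 to 9.92), with all 3 intervals overlapping, and unthinned in 11.3%, 22.9% and 23.3%. No cells without microglia markers were left in these data, so the share that free RNA gives to cells lacking these genes could not be measured.

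The spread of UMIs among cells was near that of counting alone. At 2000 UMIs the variance over the mean, which is 1 for Poisson counts, lay between 0.940 and 1.08 for Irf1, Irf2, Irf3 and Irf5 in each library. Their means were only 0.0913 to 0.578 UMIs per thinned cell. At such means the measure stays near 1 even where cells differ, so it could show little for these genes. For Irf8 it was 1.33, 1.05 and 1.02 in libraries 1, 2 and 3. The value in library 1 fell to 1.14 without a single cell that held 14 Irf8 UMIs, where the next cell held 8. Mean Irf8 UMIs per thinned cell were 1.71, 1.62 and 2.04.

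**Figure D3:**
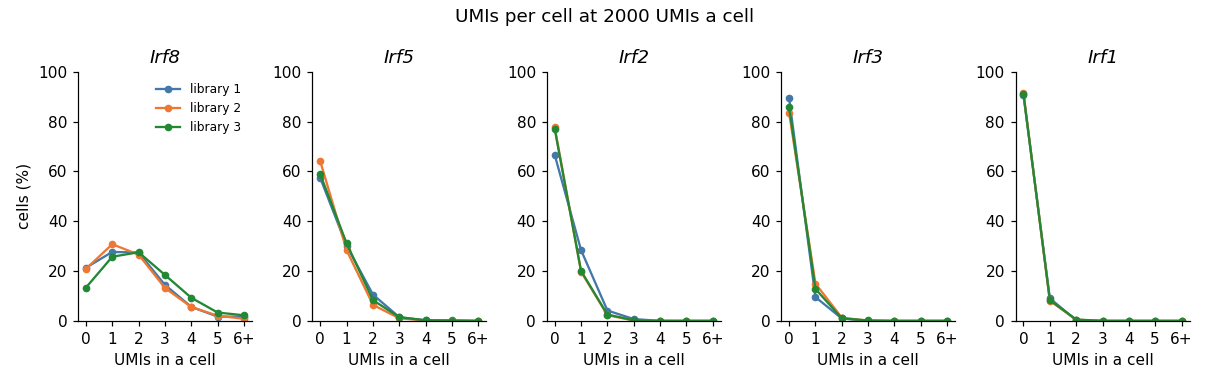
Percent of cells (y axis) with 0 to 5 or with 6 and more UMIs (x axis) of 5 Irf genes after thinning each cell to 2000 UMIs; lines are libraries of 408, 3569 and 3284 cells. Each curve has a single peak, at 0 for all but Irf8, whose curve for library 3 lies to the right of the other two.

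Co-expression was described by the number of thinned cells that held both genes of a pair over the number given by the product of their shares. Irf5 and Irf8 were found together in 139 cells in library 1, in 1009 in library 2 and in 1180 in library 3. These were 1.02 (0.879 to 1.16), 0.994 (0.942 to 1.05) and 1.01 (0.960 to 1.05) times the product. Irf1 and Irf8 gave 1.07 (0.741 to 1.49), 0.988 (0.870 to 1.12) and 1.01 (0.896 to 1.14). Because Irf8 was found in most cells, a ratio with Irf8 could not pass 1.27, 1.26 and 1.15 in libraries 1, 2 and 3, so this measure leaves little room above 1 for its pairs.

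Over the 10 pairs that leave out Irf4, all 30 intervals held 1. Each interval covers the joint count only and takes the product of the shares as fixed. It is therefore too wide for pairs with a common gene. For Irf1 and Irf8 in library 1 it reached 1.49, past the limit of 1.27. That the intervals held 1 thus does not show that the genes are independent. In libraries 2 and 3 the ratios ran from 0.947 to 1.12. Library 1 with its 408 cells ran from 0.698 (0.336 to 1.27) for Irf2 and Irf3 to 1.498 (0.552 to 3.23) for Irf1 and Irf3, so it could show little. Irf2 and Irf8 had the highest correlation of log(1 + UMIs) among the 6 pairs of Irf2, Irf3, Irf5 and Irf8, at r = 0.032 over 3569 cells of library 2 and 0.024 over 3284 cells of library 3. These cells share a library and a depth, and correlations of this size in sparse counts are no finding. A thinned cell held a median of 2 of the 6 genes in each library, and 6.86%, 7.99% and 5.18% of cells held none.

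**Figure D4:**
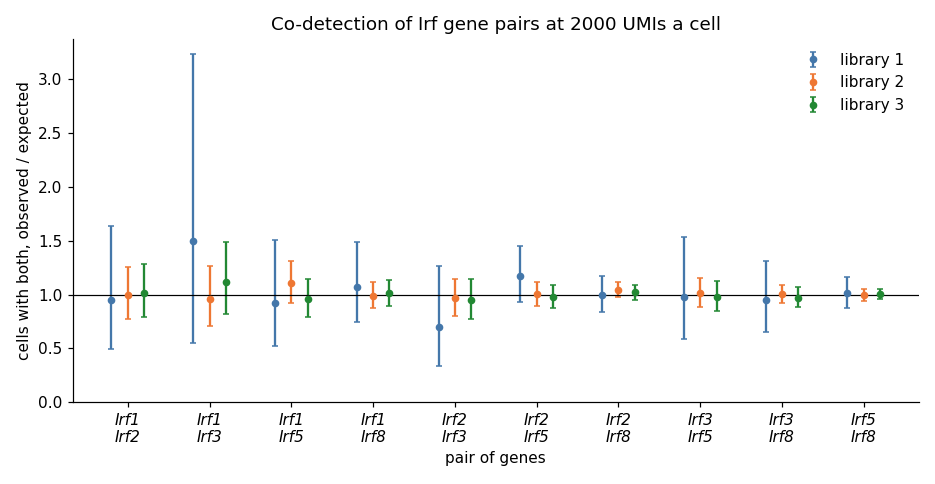
Cells with a UMI of both genes over the number given by the product of the single shares (y axis), for 10 pairs of Irf genes (x axis) in thinned cells of each library; bars are exact 95% intervals for counting error. All bars cross 1, and those of library 1 with 408 cells are the longest. The bars take the product as fixed, so they are too wide for pairs with a common gene.

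The level of each gene was then compared between states of cells within a library. Ratios of Irf1, Irf2, Irf3, Irf5 and Irf8 were counted where the high class held at least 15 cells, which gave 40. At equal depth 4 of them had an interval that left out 1, and with all UMIs of the same cells 7 did. Some of 40 such intervals can leave out 1 by counting error alone. The share over all genes was not computed for these classes, so the counts have no background to be judged against. In each library thinned cells were ranked by their UMIs of immediate early genes, which respond within minutes to many stimuli, and the top and bottom tertiles of cells were compared. Irf1 stood at 57.1 CPM in the top and 37.9 CPM in the bottom tertile of library 3, a ratio of 1.505 (1.13 to 2.01). Another random draw of UMIs gave 1.24 (0.932 to 1.65), and with all UMIs of the same cells the ratio was 1.26 (1.07 to 1.49). Library 2 gave 1.14 (0.863 to 1.51) at equal depth and 1.23 (1.05 to 1.45) with all UMIs, and library 1 gave 0.556 (0.229 to 1.27) from 10 and 18 UMIs. Irf1 was thus somewhat higher in cells rich in early genes in libraries 2 and 3 when all UMIs were used. It was not resolved in library 1. Whether Irf1 or Irf5 differed more between these tertiles than other genes do was not tested.

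Irf5 differed less. Its ratio between the top and bottom tertiles was 1.14 (1.02 to 1.29) in library 3 and 1.11 (0.981 to 1.25) in library 2 at equal depth, and 1.15 (1.07 to 1.23) and 1.13 (1.06 to 1.21) with all UMIs. In library 3 the interval held 1 in a second draw, at 1.12 (0.998 to 1.26), and with the cells split at the median, at 1.06 (0.965 to 1.17). Library 1 gave 0.949 (0.681 to 1.32). Median depths of the top and bottom tertiles were 5999 and 5015 UMIs in library 3 and 5984 and 5989 UMIs in library 2. Irf8 gave 1.07 (1.01 to 1.14) in library 2, and 1.03 (0.964 to 1.09) in a second draw, against 0.967 (0.912 to 1.03) in library 3. With all UMIs of the same cells Irf8 gave 1.06 (1.02 to 1.09) in library 2 and 0.983 (0.950 to 1.02) in library 3. The summed level of early genes differed by several-fold between libraries 2 and 3, whereas Irf1 and Irf5 differed between these libraries by 1.16 and 1.21 times.

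Cells were compared by proliferation genes in library 2, the only one with over 50 cells that held at least 3 UMIs of that list. Whether the cells of this class were dividing was not tested. List UMIs were counted in thinned cells, and most cells with none then did hold some at full depth. Irf8 stood at 765 CPM in 962 cells with at least 3 and at 846 CPM in 722 cells with none, a ratio of 0.905 (0.838 to 0.977). A second draw gave 0.995 (0.921 to 1.08) and all UMIs of the same cells 0.936 (0.898 to 0.976). The cells with at least 3 were deeper, with a median of 7453 against 5743 UMIs. Over all cells of library 2 the level of Irf8 was 845, 813 and 748 CPM from the shallowest to the deepest tertile. Depth and proliferation genes were not separated. The other 4 genes had intervals that held 1 at equal depth, at 0.894 for Irf1, 1.005 for both Irf2 and Irf5 and 0.954 for Irf3. Irf3 gave 0.871 (0.769 to 0.987) with all UMIs.

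Cells with at least 3 UMIs of 16 interferon-stimulated genes, such as Ifit3, Isg15 and Bst2, were set against cells with none. At equal depth all 15 intervals of Irf1, Irf2, Irf3, Irf5 and Irf8 in the 3 libraries held 1. Irf8 gave 1.0005 (0.802 to 1.25), 1.06 (0.977 to 1.14) and 1.04 (0.953 to 1.14) in libraries 1, 2 and 3. Irf1 gave 0.659 (0.244 to 1.63), 0.731 (0.533 to 1.002) and 0.944 (0.601 to 1.44), and a second draw gave 0.595, 1.08 and 1.10. Irf7, a family gene that is itself induced by interferon and was measured for comparison, gave 10.5 (1.41 to 468) from 8 and 1 UMIs, 1.97 (1.19 to 3.37) and 3.57 (2.01 to 6.32). Irf9, the other family gene measured so, gave 1.09 (0.561 to 2.09), 1.04 (0.820 to 1.32) and 1.16 (0.827 to 1.60). Each interval of Irf9 thus held 1, like those of the members.

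**Figure D5:**
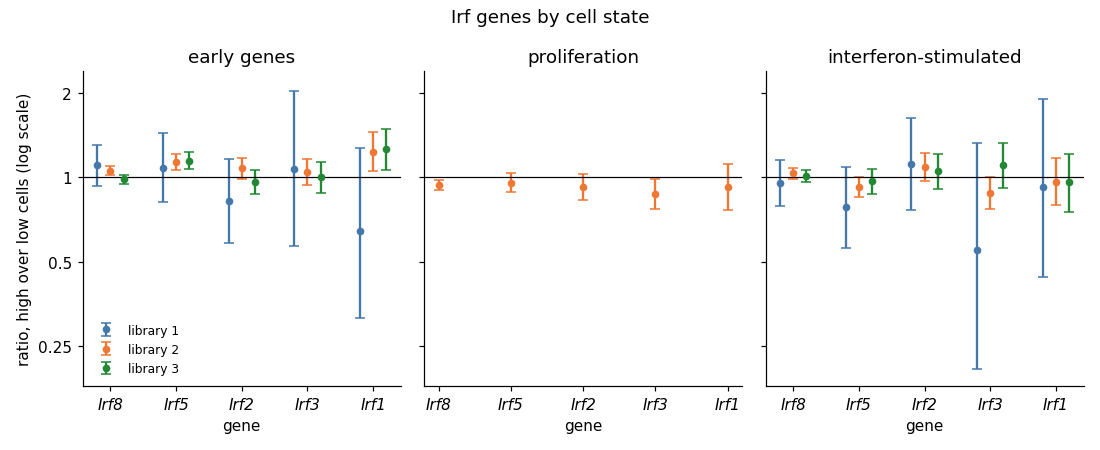
Ratio of the level (CPM, log axis) of 5 Irf genes in cells high over low in 3 gene lists, with all UMIs of the same cells; early genes compare top and bottom tertiles, the others at least 3 against 0 list UMIs at 2000 UMIs a cell, and bars are exact 95% intervals for counting error. Proliferation is drawn for library 2 only, as the other libraries had fewer than 50 high cells. For early genes the bars of Irf1 and Irf5 lie above 1 in libraries 2 and 3, and that of Irf8 in library 2.

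Irf4 was found in 63 cells of the 7522, and only 1 of them held 2 UMIs of it. As every other cell did, all 63 held at least 2 microglia markers, and their median depth was 5989 UMIs against 5662 in the other cells. None of them held a UMI of a list of 6 dendritic cell markers, against 2.08% of the other cells, a share too low for 63 cells to show a difference. None held 2 of 6 B cell markers. Only 9 of all 7522 cells did, too few for 63 cells to show a difference. A UMI of the B cell list was found in 23.8% of the 63 cells and in 23.7% of the others. It was mostly Cd79b, which held 1309 of the 1319 UMIs of that list in library 2, and Pax5 was at 0 in all cells. At 2000 UMIs, Irf4 was left in 1, 3 and 9 cells of libraries 1, 2 and 3. The ratio of library 3 over library 2 was 2.27 (1.32 to 4.004) from 41 and 22 UMIs, under the level at which genes were called.

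Other family genes were looked up for comparison. Irf9, the DNA-binding subunit of the complex that binds the interferon-stimulated response element, stood at 116, 88.0 and 74.7 CPM in libraries 1, 2 and 3, highest in library 1 and with no overlap of intervals between the libraries. Irf7 stood at 21.6, 22.8 and 16.5 CPM.

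Upstream of the factors, the 20 genes of Toll-like receptor and nucleic acid sensing summed to 2182, 1607 and 1966 CPM. Of 18 tested in library 2 over library 1, none was past 1.5-fold higher and 5 were lower, with a median log2 ratio of -0.19 against -0.11 for all genes. Over all genes 13.6% were higher and 19.3% lower in that comparison. Unc93b1, which carries endosomal Toll-like receptors, was the most abundant of them at 1145, 731 and 952 CPM, and Tmem173, which encodes STING, stood at 295, 271 and 295 CPM. For library 3 over library 2, 1 of 18 was higher and none lower, with a median of 0.19 against -0.03. Over all genes 4.04% were higher and 6.88% lower there. The 7 interferon receptor and kinase genes had a median of -0.48 in library 2 over library 1, with 1 of 7 lower, and of 0.09 in library 3 over library 2, with none of 6 past 1.5-fold. Ifngr1 was the most abundant of them at 1122, 787 and 906 CPM.

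Of the known partners, Spi1, which encodes PU.1, stood at 549, 547 and 607 CPM and differed by less than 1.5-fold. Batf3 stood at 49.9, 81.7 and 85.0 CPM and was past 1.5-fold higher in both comparisons with library 1. Stat2 stood at 22.3, 16.2 and 12.4 CPM, highest in library 1 but from only 30 UMIs there, against 391 and 246 in libraries 2 and 3. Over the 10 partner genes, 1 of 9 tested was higher and 1 lower in library 2 over library 1 as well as in library 3 over library 2. For library 3 over library 1 the counts were 3 higher and 2 lower. Over all genes 13.6% were higher and 19.3% lower in library 2 over library 1. These shares were 11.7% and 21.4% in library 3 over library 1, and 4.04% and 6.88% in library 3 over library 2.

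Downstream, P2rx4 stood at 151, 112 and 126 CPM. Il1b stood at 2.23 CPM in library 1 from 3 UMIs, 4.65 CPM in library 2 and 18.7 CPM in library 3, and Bdnf had no UMI in any cell. Of the 9 genes known as targets or effectors of the pathway, 8 were tested in library 3 over library 2 and only Il1b was past 1.5-fold, with a median log2 ratio of 0.16. The interferon-stimulated genes differed more widely. Of 13 tested in library 3 over library 2, none was higher and 6 were lower, with a median of -0.38 against -0.03 for all genes, while Irf8 and Irf5 were higher in library 3 at less than 1.5-fold. Of 14 tested in library 3 over library 1, 1 was higher and 10 were lower, with a median of -1.07. Shares over all genes were 4.04% higher and 6.88% lower in library 3 over library 2, and 11.7% and 21.4% in library 3 over library 1.

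The genes whose counts over cells were most like those of each factor were ranked by the lower of 2 correlations, in libraries 2 and 3, among 2924 genes with at least 0.1 UMIs per thinned cell. Irf1 and Irf4 were under that level. The first 3 were Pak2, Wdr43 and Zfand5 for Irf8, Mapk14, Lamp1 and Necap2 for Irf2, and Tmem160, Plcl2 and Ccl9 for Irf3. Their lower correlations were at most 0.045, and none of them was among the first 3 in a second random draw of UMIs, so no gene was found to follow a factor from cell to cell.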

How the data were processed

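The authors deposited 1 matrix of UMI counts per gene and cell, not normalized, that joins the 3 libraries. Per the labels, a 10x Genomics 3' kit was used, and the submitters' processing notes name Cell Ranger 2.1.1 and mm10. Whether reads were down-sampled on joining and how cells were called is not stated in the labels or the methods. The methods state that doublets were gated out in the sort, and no doublet caller was run. All cells were kept. Counts were summed by barcode suffix and scaled to 1000000 UMIs (CPM), without a pseudocount. The limit for a count of 0 was 3 counts. Total UMIs were 1343055, 24097543 and 19769170. Thinning to 2000 UMIs was without replacement (seed 1). The 6 genes and the gene lists were chosen with earlier results of these data known. Named genes are the members, other genes of the family, list genes and the 3 genes most like each member, and a few results under this rule are not reported here. Alternatives were another scaling, totals, filter, fold, depth, seed, cut and correlation. The ratio and co-detection steps were tested on simulated data, and thinning was checked on the cells of library 1 for the depth it left. The scripts ran under Python 3.11.15 with matplotlib 3.10.9, pandas 2.3.3, scipy 1.17.1 and numpy 2.4.6.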

Additional observations from a re-analysis of the deposited data

How the results depend on the processing

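No paired analysis was possible because the 3 libraries carry no replicates and no time point. The count of the 6 genes past 1.5-fold changed in 4 cases. Irf3 was past 1.5-fold higher in library 2 over library 1 among cells thinned to 2000 UMIs, which made 1 gene in place of 0. Scaling by the median gene left 0 lower in place of 1 in library 3 over library 1, and a threshold of 2-fold left 0 lower in both comparisons with library 1. Leaving out cells with 2 markers of another cell type, chosen after seeing the data, changed none of these counts. It took only 5 cells from library 1, so it could show little there. No ratio of Irf2 over library 1 turned direction. Co-detection ratios left their interval in 3 of 30 cases at 1000 UMIs (1.32 for Irf1 and Irf2, 1.40 for Irf1 and Irf3 and 1.18 for Irf2 and Irf5, all in library 2). Comparisons of cell states with all UMIs were chosen after seeing the data. A second draw took 5 cell state ratios of factors other than Irf4 out of their interval in library 2, to 0.916 for Irf2 and 0.889 for Irf3 by early genes, 0.995 for Irf8 by proliferation, and 1.08 for Irf1 and 1.05 for Irf5 by interferon-stimulated genes.

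Counts over all genes depended on the filter. With at least 50 CPM, at least 1 CPM or any UMI in place of 10 CPM, genes higher in library 2 over library 1 were 541, 2050 and 4790, and genes lower were 556, 2861 and 3503. In library 3 over library 1 they were 454, 1753 and 4282 higher and 592, 3148 and 3861 lower. In library 3 over library 2 they were 146, 808 and 2294 higher and 149, 1376 and 3452 lower. Depth limits Irf1 and Irf3 in library 1, with 77 and 88 UMIs, and Irf4 in all libraries.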
